A study of Mus musculus with 22 samples.

Results

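The brain has little collagen, and its extracellular matrix is built largely on hyaluronan, a long sugar chain made at the cell surface. Lecticans are chondroitin sulfate proteoglycans that bind hyaluronan at their amino-terminal end and tenascins at their carboxy-terminal end, and link proteins stabilise the binding to hyaluronan. Matrilins are secreted adaptor proteins that assemble into filaments and connect matrix components. Around some neurons, and most densely around interneurons that make parvalbumin, this matrix condenses into perineuronal nets, which are known to limit plasticity in the adult brain. Here the RNA of 9 such genes was followed out of 39179 genes in the count tables: the matrilins *Matn2*, *Matn3* and *Matn4*, the lecticans *Acan* (aggrecan), *Bcan* (brevican), *Ncan* (neurocan) and *Vcan* (versican), and the link protein genes *Hapln1* and *Hapln4*. The genes were picked as a group because *Matn2* was higher in KO than in WT prefrontal cortex of a *Phf8* mutant mouse line, so the KO and WT values of that tissue are given below as a description, without p-values, and the call made there supports nothing.

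RNA was sequenced from 22 samples in 8 groups, WT and *Phf8* KO of each of 4 sources. ESCs (2 WT and 2 KO samples) were derived from blastocysts and grown on gelatin or feeder cells, and NPCs (3 and 3) were derived from late embryos and grown as a monolayer. Prefrontal cortex (PFC, 3 and 3) and ventral striatum (STR, 3 and 3) were dissected from mice aged 2 months. All groups, WT and KO, have the strain background B6x129SvJ. PHF8 is a histone demethylase encoded on the X chromosome, and the KO allele lacks exons 7 and 8 after CMV-Cre deletion between loxP sites in clonally expanded ESCs. The labels do not say whether samples of a group came from separate animals or cultures, so the spread between them may in part be technical.

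The depth was 5898286 to 15539811 gene counts per sample, lowest in a WT PFC sample. *Phf8* itself was at 38.4 to 70.3 counts per 1e+06 counts (CPM) in WT and 13.4 to 22.2 CPM in KO samples, and in each source every KO sample was below every WT sample. Among the cell type markers, 6 ESC genes summed to 2858 to 3377 CPM in ESCs and at most 5.92 CPM elsewhere, 7 striatal projection neuron genes summed to 1195 to 1605 CPM in STR and 190 to 218 CPM in PFC, and 7 cortical excitatory neuron genes to 996 to 1211 CPM in PFC and 155 to 598 CPM in STR. Some samples stood apart on markers of other cells. The ESC samples numbered 2 held 3586 (WT) and 4378 CPM (KO) of 6 fibroblast genes against 162 and 151 CPM in those numbered 1, the NPC samples numbered 2 held 219 (WT) and 412 CPM (KO) of 6 oligodendrocyte genes against 1886 to 3135 CPM in the other NPC samples, and STR KO samples 1 and 2 held 142 and 20.7 CPM of 7 hypothalamic genes against 6.96 to 9.24 CPM in the other STR samples. STR KO sample 1 also held 155 CPM of the cortical excitatory genes against 420 to 598 CPM in the other STR samples. WT PFC sample 3 held 15.3 CPM of the hypothalamic genes against 2.32 to 6.36 CPM in the other PFC samples. It held 2235 CPM of the oligodendrocyte genes against 1699 and 1749 CPM in the other WT PFC samples. Values without such samples are given below for some of the members whose call or difference they changed.

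Each lectican gene lies beside a link protein gene, with no other protein-coding gene between them on GRCm38. *Ncan* (ENSMUSG00000002341, chromosome 8, 70093085 to 70120873, minus strand) and *Hapln4* (ENSMUSG00000007594, 70083457 to 70090862, plus strand) are 2222 bases apart. *Vcan* (ENSMUSG00000021614, chromosome 13, 89655312 to 89742509, minus strand) and *Hapln1* (ENSMUSG00000021613, 89539796 to 89611652, plus strand) are 43659 bases apart. *Bcan* (ENSMUSG00000004892, chromosome 3, 87987531 to 88000230, minus strand) is 21519 bases from *Hapln2*, and *Acan* (ENSMUSG00000030607, chromosome 7, 79053483 to 79115099, plus strand) is 2 bases from *Hapln3*. The matrilin genes are on chromosomes of their own: *Matn2* (ENSMUSG00000022324) on chromosome 15 from 34306677 to 34436273, *Matn3* (ENSMUSG00000020583) on chromosome 12 from 8947929 to 8972028, both on the plus strand, and *Matn4* (ENSMUSG00000016995) on chromosome 2 from 164389393 to 164405160 on the minus strand. *Matn4* shares 149 exon bases (2.88% of its own) with *Rbpjl* on the opposite strand, and *Matn2* shares 70 (1.12%) with 9430069I07Rik. The strand setting of the counting is not given in the sources used here, so reads on these bases cannot be assigned with certainty. *Rbpjl* had 287 counts and 9430069I07Rik had 9 counts over all samples.

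The sequences before the start sites of 4 members show how unlike the starts of these genes are. They are the 250 bases before the annotated start, from RefSeq on GRCm38.p6, written 5' to 3' on the strand of the gene with each CG pair in capitals. RefSeq starts can differ from the gene positions given above, which come from another annotation. The *Hapln1* window lies within the gene as placed above, and the *Ncan* window overlaps the first bases of its gene. *Bcan* (chr3:88000357-88000606, minus strand) and *Ncan* (chr8:70120845-70121094, minus strand) are shown because both were highest in NPCs, *Acan* (chr7:79052976-79053225, plus strand) because it was highest in ESCs, and *Hapln1* (chr13:89540386-89540635, plus strand) because it was counted almost only in brain.
Bcan: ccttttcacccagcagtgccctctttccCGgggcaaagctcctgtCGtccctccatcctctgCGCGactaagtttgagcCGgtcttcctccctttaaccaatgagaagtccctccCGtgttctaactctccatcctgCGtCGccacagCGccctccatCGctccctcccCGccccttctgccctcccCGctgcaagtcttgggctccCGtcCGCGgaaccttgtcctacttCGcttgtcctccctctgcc
Ncan: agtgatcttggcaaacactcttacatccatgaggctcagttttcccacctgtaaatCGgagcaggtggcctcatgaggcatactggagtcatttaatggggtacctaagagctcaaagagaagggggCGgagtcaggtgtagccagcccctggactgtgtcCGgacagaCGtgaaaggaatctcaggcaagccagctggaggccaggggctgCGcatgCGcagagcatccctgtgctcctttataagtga
Acan: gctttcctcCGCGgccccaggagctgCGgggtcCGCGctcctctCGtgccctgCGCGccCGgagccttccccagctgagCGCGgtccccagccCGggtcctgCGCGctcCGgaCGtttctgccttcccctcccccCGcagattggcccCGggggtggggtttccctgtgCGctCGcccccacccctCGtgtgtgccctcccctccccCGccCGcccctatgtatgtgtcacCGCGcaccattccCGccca
Hapln1: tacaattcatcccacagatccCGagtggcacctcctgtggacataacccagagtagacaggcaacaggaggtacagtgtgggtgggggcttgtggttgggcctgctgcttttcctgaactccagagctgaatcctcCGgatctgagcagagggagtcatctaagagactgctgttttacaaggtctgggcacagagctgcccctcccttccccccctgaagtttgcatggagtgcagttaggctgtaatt

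*Acan* had 26 CG pairs in this window and a G and C content of 74.4%, higher than 95.4% of 32851 mouse promoters of the same length, whose median is 6 CG pairs and 52.4%. *Bcan* had 16 CG pairs and 62% G and C, *Ncan* 6 pairs and 54.4%, and *Hapln1* 2 pairs and 54.4%. The pair highest in NPCs thus differed in CG content, and the ratio of CG pairs to the number given by base content was 0.808 for *Bcan* and 0.329 for *Ncan*. On either strand, the letters TATAAA were found in the *Ncan* window and not in the other 3, against 12.4% of all promoters. In *Ncan* they stood on the opposite strand (TTTATA as printed), in the last bases, which overlap the gene as placed above. GGGCGG was found before *Acan*, *Bcan* and *Ncan* (32.7% of all promoters), CCAAT before *Acan* and *Bcan* (33.8%), and AACAAT and CACGTG before none of the 4 (9.42% and 6.02%). Among the other members in the table, *Matn3* and *Vcan* had 14 and 10 CG pairs, and the *Matn4* starts had 8 and 14. Sequences were matched for 7 of the 9 members. *Matn2* and *Hapln4* are named only.

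The members differed most between sources. Levels were compared as RPKM, counts per kilobase of exon and per 1e+06 counts, after scaling over all samples. Neurocan and brevican RNA were far above the rest in NPCs, *Hapln4*, *Bcan* and *Ncan* led in both brain regions, and no member passed 10 RPKM in ESCs. Summed over the 4 lecticans, WT NPCs held 755 ± 164 RPKM (SD, n = 3), STR 87.8, PFC 85.2 and ESCs 8.45 RPKM. The 2 link protein genes were highest in brain: their sum was 53.3 RPKM in WT PFC, 23.4 in STR, 4.18 in NPCs and 1.07 RPKM in ESCs. The 3 matrilins varied least, with sums of 11.2 RPKM in STR, 10.3 in PFC, 6.87 in NPCs and 4.44 RPKM in ESCs. Culture and brain tables carry different file names for the counting, so levels across that line are given without a test.

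**Figure D1:**
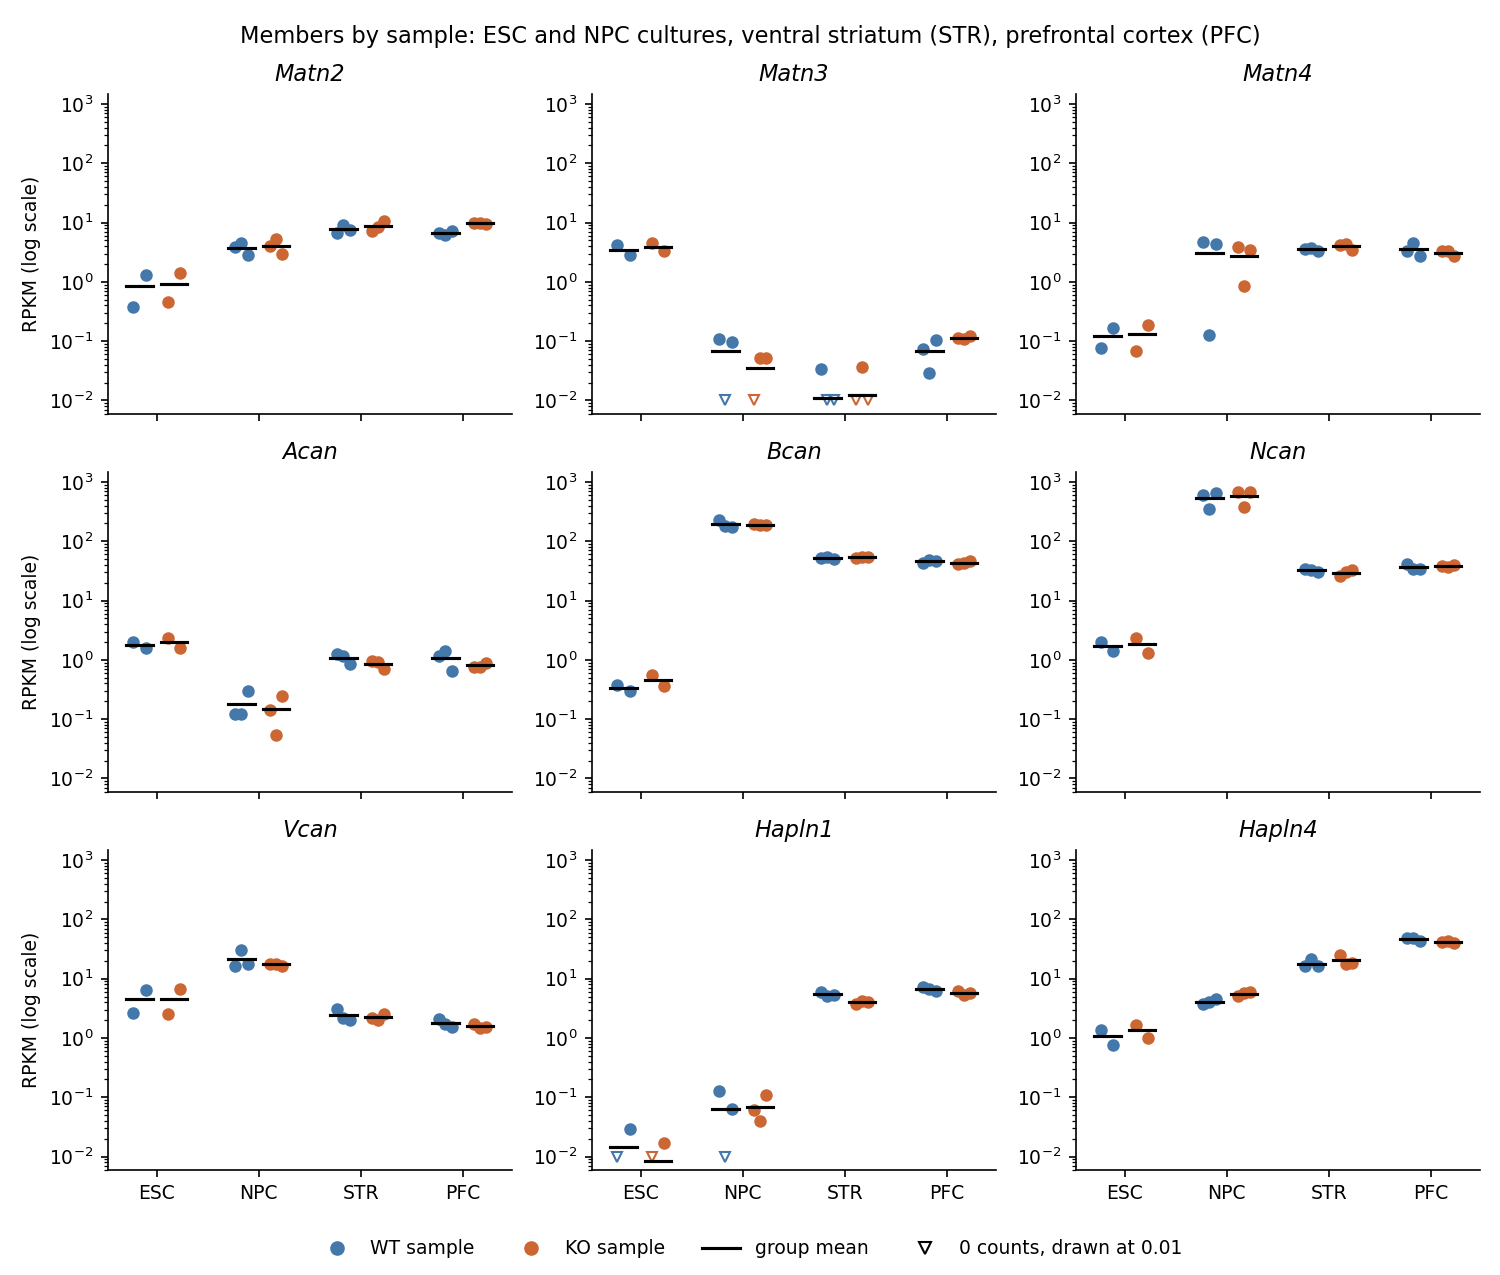
RPKM of the 9 members in each of 22 samples on a log scale, by source and genotype, with a line at each group mean and open triangles at 0.01 for samples with 0 counts. *Ncan* and *Bcan* are highest in NPCs, *Hapln1* is near 0 in both cultures, *Matn3* and *Acan* are highest in ESCs, and *Matn4* has an NPC sample at 0.125 RPKM.

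Among the matrilins, *Matn2*, whose protein is found in many tissues, had the highest mean outside ESCs, though *Matn4* was above it in NPC samples 1 and 3. Its level was 6.75, 6.25 and 7.06 RPKM in WT PFC samples 1 to 3, 6.69, 8.95 and 7.34 RPKM in STR, 3.86, 4.50 and 2.86 RPKM in NPCs, and 0.369 and 1.33 RPKM in ESCs. The ranges of STR and PFC overlapped, and those of PFC, NPCs and ESCs were apart in that order. *Matn4*, a matrilin of brain and other tissues, was at 3.34, 4.49 and 2.75 RPKM in WT PFC and at 3.53, 3.72 and 3.34 RPKM in STR. In WT NPCs it was at 4.72, 0.125 and 4.34 RPKM, and in WT ESCs at 0.0777 and 0.166 RPKM (4 and 10 counts). The ranges of PFC, STR, NPCs and ESCs overlapped for neighbours in the order of the means, in NPCs because of sample 2.

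*Matn3*, known from cartilage, was highest in ESCs. WT ESCs were at 4.17 and 2.78 RPKM (125 and 98 counts), and it made up 77.7% ± 17.8 (SD, n = 2) of the matrilin RPKM there. It had 4, 0 and 4 counts in WT NPCs, 2, 1 and 2 in WT PFC and 1, 0 and 0 in WT STR. A sample with 0 counts allows up to 0.126 RPKM at 3 counts, counting error only, so the NPC and STR samples with 0 counts do not show that *Matn3* was absent. Every WT PFC sample held reads of it, at counts too low to compare levels at this depth.

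Among the lecticans, *Ncan*, a lectican made in the nervous system, reached 613, 356 and 652 RPKM in WT NPC samples 1 to 3. It was at 40.7, 33.5 and 34.4 RPKM in WT PFC, at 33.7, 33.1 and 30.0 RPKM in STR, and at 2.02 and 1.42 RPKM in ESCs. *Bcan*, the other lectican known mainly from the nervous system, was at 227, 180 and 174 RPKM in WT NPCs, 52.3, 54.1 and 49.6 RPKM in STR, 43.3, 48.7 and 46.4 RPKM in PFC, and 0.371 and 0.295 RPKM in ESCs. For both genes every NPC sample was above every brain sample, and every brain sample above every ESC sample. The *Ncan* mean exceeded the *Bcan* mean in WT NPCs (540 and 194 RPKM) and ESCs (1.72 and 0.333 RPKM), and *Bcan* exceeded *Ncan* in PFC (46.1 and 36.2 RPKM) and STR (52.0 and 32.3 RPKM).

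*Vcan*, the most widely expressed lectican, was at 16.3, 29.9 and 17.8 RPKM in WT NPCs and at 2.67 and 6.51 RPKM in WT ESCs. In brain it was at 3.05, 2.14 and 2.01 RPKM in STR and 2.12, 1.70 and 1.50 RPKM in PFC. Only NPCs stood apart. The ranges of ESCs and STR, and of STR and PFC, overlapped. *Acan*, the large proteoglycan of cartilage and of perineuronal nets, was low throughout: 2.00 and 1.62 RPKM in WT ESCs, 1.25, 1.17 and 0.836 RPKM in STR, 1.19, 1.40 and 0.648 RPKM in PFC, and 0.121, 0.124 and 0.296 RPKM in NPCs. ESCs were above and NPCs below both brain regions, which overlapped.

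Among the link protein genes, *Hapln4*, whose protein is known from perineuronal nets with brevican, differed between all 4 WT groups with no overlap of their ranges. It was at 1.36 and 0.764 RPKM in ESCs, 3.76, 3.99 and 4.59 RPKM in NPCs, 16.6, 21.1 and 16.1 RPKM in STR, and 48.0, 49.0 and 42.7 RPKM in PFC. *Hapln1*, the link protein of cartilage and of perineuronal nets, was a brain gene in these data, at 7.27, 6.71 and 6.27 RPKM in WT PFC and 5.93, 5.07 and 5.37 RPKM in STR. WT NPCs had 9, 0 and 5 counts of it and WT ESCs 0 and 2. Neighbouring genes did not share their order: in WT NPCs *Ncan* was at 540 and its neighbour *Hapln4* at 4.11 RPKM, and *Vcan* was at 21.3 and its neighbour *Hapln1* at 0.0625 RPKM.

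Over the 8 group means, on the log2(CPM + 0.5) scale, each member had a closest partner among the others: *Matn2* and *Matn4* (Pearson's r = 0.983), *Bcan* and *Ncan* (0.940), *Hapln1* and *Hapln4* (0.940), *Matn3* and *Acan* (0.616), and *Vcan* with *Ncan* (0.552). Among 18202 expressed genes, profiles close to that of *Matn2* were those of *Cacna1c* (r = 0.997), a calcium channel subunit, and *Plxnc1* (0.997), a semaphorin receptor. In WT PFC, STR, NPCs and ESCs, in that order, *Cacna1c* was at 2.28, 2.84, 1.02 and 0.140 RPKM and *Plxnc1* at 11.6, 11.9, 4.25 and 0.379 RPKM. These r values are descriptions over points that share sources and libraries.

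The comparison of WT NPCs with WT ESCs asked how the members differ between the cultured cell types. All 8 members that passed the expression filter passed an FDR of 0.05 in edgeR's quasi-likelihood test, beside 71.2% of all genes tested. Of the members 6 were higher in NPCs, as were 34.6% of all genes, and 2 were lower, as were 36.6%. The median log2 fold change was 2.25 over the members and -0.02 over all 15938 genes. *Bcan* was higher by a log2 fold change of 9.26 (SE 0.24, FDR 2.7e-05) and *Ncan* by 8.38 (SE 0.44, FDR 1.2e-04). *Matn3* (-5.45, SE 0.69, FDR 0.00127) and *Acan* (-3.22, SE 0.45, FDR 0.00178) were lower, by 43.6-fold and 9.30-fold in the fit. The *Matn3* fold rests on 4, 0 and 4 counts in WT NPCs, so its size is uncertain. *Vcan* (2.29, SE 0.52, FDR 0.0115) and *Hapln4* (2.05, SE 0.30, FDR 0.00219) were higher. With KO in place of WT samples, the same 8 members passed with the same directions. *Hapln1* did not pass the filter and has no fold.

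*Matn4* and *Matn2* were the least secure of these. *Matn4* was higher in NPCs by 4.68 (SE 1.64, FDR 0.0490) and did not pass without the filter or without either WT ESC sample (log2 fold change 4.25 without sample 1 and 5.32 without sample 2), and without NPC sample 1 or 3 it was under the filter. *Matn2* was higher by 2.20 (SE 0.59, FDR 0.0208) and did not pass without NPC sample 1 (2.20) or NPC sample 2 (2.03). Without ESC sample 2, which held the fibroblast markers, *Matn2* was higher by 3.40 and without ESC sample 1 by 1.55, and both passed. For *Vcan* these values were 3.06 and 1.78, and for *Hapln4* 1.66 and 2.49, and all passed. Each leaves 1 ESC sample, which is then assumed to vary like the NPC samples. With any sample left out, 6 to 7 members passed.

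In the cultures, some members followed the replicate number more than the genotype. *Matn4* was at 0.125 RPKM in the WT and 0.859 RPKM in the KO NPC sample numbered 2, which is 0.0277 and 0.236 of the mean of the other samples of its genotype (7 and 56 counts against 223 to 304). *Ncan* in those samples was 0.563 and 0.572 of the others, and *Bcan* 0.900 and 0.969. The 6 oligodendrocyte markers, of which *Mog* and *Mobp* were at 0 in WT sample 2, summed to 219 and 412 CPM in these samples and to 1886 to 3135 CPM in the other 4, and the 6 astrocyte markers to 3410 and 4311 CPM against 5325 to 7468 CPM. In ESCs, the samples numbered 2 held 2.44 (WT) and 2.57 (KO) times the *Vcan* and 3.59 and 3.10 times the *Matn2* of those numbered 1, while *Acan* was at 0.806 and 0.675 and *Ncan* at 0.699 and 0.560 of them. The 6 fibroblast markers, of which *Lum* was at 0 in KO sample 1, were at 3586 and 4378 CPM there against 162 and 151 CPM. The part of these cells in the members' values was not tested.

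**Figure D2:**
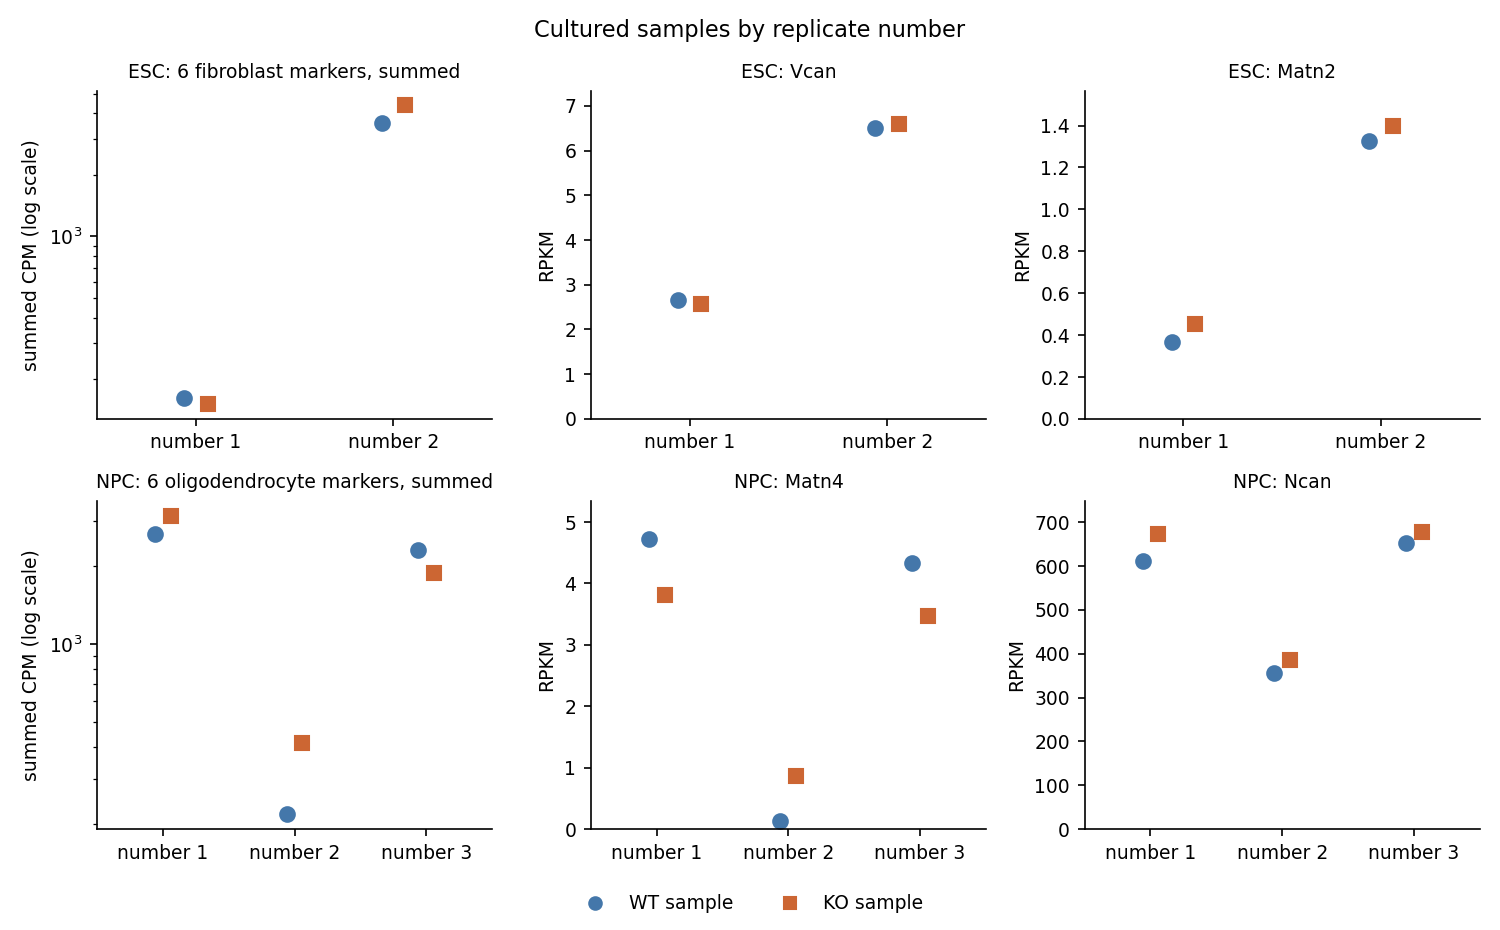
Summed CPM of fibroblast or oligodendrocyte markers (left, log scale) and RPKM of *Vcan*, *Matn2*, *Matn4* and *Ncan*, in each ESC (upper) and NPC (lower) sample by replicate number, WT as circles and KO as squares. Samples numbered 2 are high in fibroblast markers, *Vcan* and *Matn2* in ESCs, and low in oligodendrocyte markers, *Matn4* and *Ncan* in NPCs, in both genotypes.

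The comparison of WT PFC with WT STR asked how the adult matrix genes differ by region. *Hapln4* had the largest difference between the regions among the members. It was at 46.5 ± 3.36 RPKM (SD, n = 3) in PFC and 17.9 ± 2.79 RPKM (SD, n = 3) in STR, a log2 fold change of 1.35 (SE 0.11, FDR 1.1e-05, edgeR's quasi-likelihood test), or 2.55-fold, with every PFC sample above every STR sample (21.9% of all genes). The log2 fold change was 1.28 to 1.49 with any sample left out and 1.02 (SE 0.12, FDR 4.4e-04) in the KO samples. It was the single member called of 8 tested, beside 24.4% of all 15555 genes (13% higher in PFC), and the median log2 fold change was -0.01 over the members and over all genes. In bulk tissue a larger number of cells that make *Hapln4* and more of its RNA per cell cannot be told apart.

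The other members differed less. *Vcan* was lower in PFC by 0.46 on the log2 scale (SE 0.18, FDR 0.0854), *Bcan* by 0.20 (SE 0.08, FDR 0.0936), with every PFC sample below every STR sample (17.6% of all genes), and *Hapln1* was higher by 0.28 (SE 0.10, FDR 0.0706), with every PFC sample above. None of these passed. Same-numbered PFC and STR samples deviated together (r = 0.360, 0.186 and 0.392), and 3 members passed once the replicate number was a block: *Hapln4*, *Vcan* (FDR 0.00108) and *Hapln1* (FDR 0.0153). *Vcan* also passed without WT PFC sample 1 (-0.60) and *Hapln1* without WT PFC sample 3 (0.33). In the KO samples 5 members passed: *Bcan* (-0.34, SE 0.06, FDR 0.00541), *Ncan* (0.34, SE 0.08, FDR 0.0156), *Vcan* (-0.53, SE 0.11, FDR 0.00726), *Hapln1* (0.49, SE 0.10, FDR 0.00708) and *Hapln4*. *Bcan*, *Vcan*, *Ncan*, *Hapln1* and *Hapln4* had the same direction in WT and KO samples. *Ncan* was at 0.14 (SE 0.10, FDR 0.345) in WT, and *Matn4* (-0.01, SE 0.17) and *Acan* (0.00, SE 0.26) showed no direction that held across settings. For *Matn2*, the WT samples gave -0.22 (SE 0.12, FDR 0.204) and the KO samples 0.13 (SE 0.11, FDR 0.443). The WT PFC samples are those of the comparison that chose the members. Whether the regions differ in another way in KO than in WT was not tested.

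**Figure D3:**
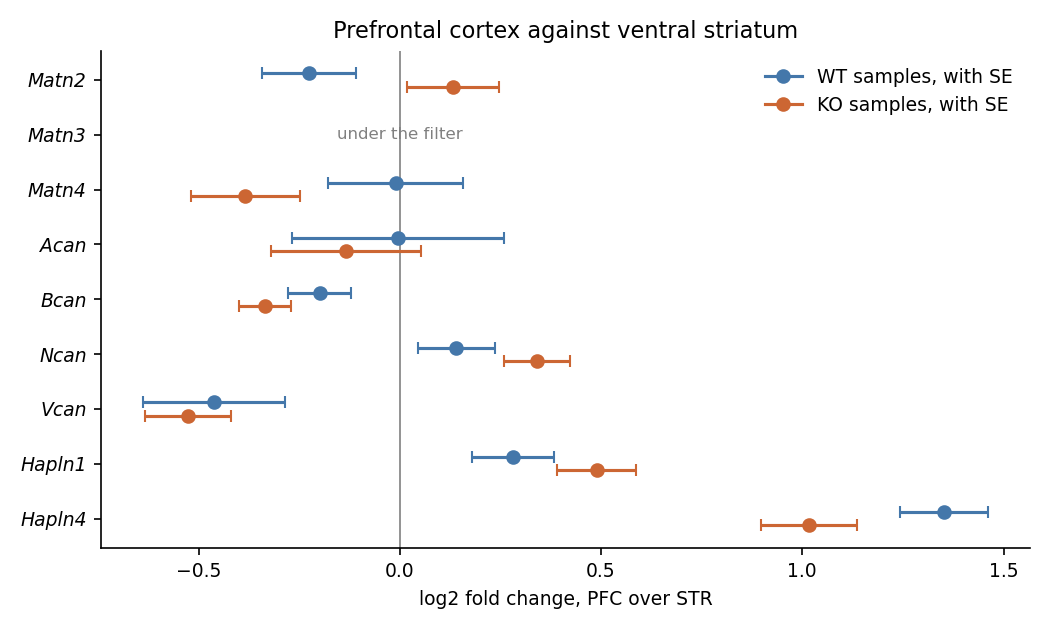
Log2 fold change of PFC over STR with its SE, for WT samples (blue) and KO samples (orange). *Hapln4* is at 1.35 in WT and 1.02 in KO samples, and the other members lie between -0.53 and 0.49.

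In the WT samples, most genes of the parvalbumin interneuron list differed in the same direction as *Hapln4*. *Pvalb*, the gene of parvalbumin, was at 66.7 ± 9.38 CPM (SD, n = 3) in WT PFC and 27.5 ± 1.82 CPM (SD, n = 3) in WT STR, and at 51.3 ± 4.63 and 29.9 ± 6.68 CPM in the KO samples. The list of 6 parvalbumin interneuron genes (*Pvalb*, *Kcnc1*, *Kcnc2*, *Tac1*, *Syt2* and *Kcns3*) summed to 654 to 707 CPM in WT PFC and 517 to 524 CPM in WT STR. At an FDR under 0.05, 5 of the 6 were higher and 1 lower in PFC. *Pvalb* was a small part of these sums, which do not measure parvalbumin interneurons alone. In the KO samples the sums overlapped, at 554 to 646 CPM in PFC and 523 to 637 CPM in STR. Among the other lists, at the same FDR, 6 of 7 cortical excitatory and 3 of 6 astrocyte genes were higher in WT PFC and none lower. All 7 striatal projection neuron genes were lower. Of all genes, 13% were higher in PFC. The part of any cell type in the *Hapln4* difference was not tested.

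A list of 58 other genes of this matrix (tenascins, hyaluronan and chondroitin sulfate enzymes, proteases, receptors) gave 17 of 52 tested as different between WT PFC and WT STR, 8 higher and 9 lower in PFC, beside 24.4% of all genes, and 11 to 15 with any sample left out. Higher in PFC were *Rtn4r* (2.03, FDR 1.7e-06), a receptor for myelin inhibitors and chondroitin sulfate, *Cemip* (1.86, FDR 2.4e-05), which takes part in hyaluronan breakdown, the lectican-cleaving proteases *Adamts8* (1.43, FDR 0.00106), *Adamts1* (0.73, FDR 0.00139) and *Adamts15* (0.62, FDR 0.0299), and the small proteoglycan *Dcn* (1.31, FDR 0.0103). Lower in PFC were the sulfotransferases *Ust* (-1.30, FDR 5.6e-06) and *Chst15* (-0.92, FDR 4.7e-04), the epimerase *Dsel* (-0.66, FDR 0.00265), the hyaluronan synthases *Has3* (-1.38, FDR 6.4e-04) and *Has1* (-1.64, FDR 7.7e-04), and *Adamts9* (-0.96, FDR 0.0117). Of the 9 tested sulfotransferase and epimerase genes, 4 were lower and none higher in PFC, and none of 11 chain synthesis genes passed. Of all genes, 24.4% passed in either direction and 13% were higher in PFC. *Adamts15* did not pass when any WT sample but PFC sample 3 was left out, *Dcn* without PFC sample 3 and *Adamts9* without PFC sample 1, and *Dcn* and *Dsel* did not pass in the KO samples.

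The same list gave 36 of 52 as different between WT NPCs and WT ESCs, 29 higher and 7 lower in NPCs, beside 71.2% of all genes, and 28 to 41 with any sample left out. *Ptprz1*, a receptor phosphatase that is itself a chondroitin sulfate proteoglycan, was higher by 9.40 (FDR 2.4e-05), *Cspg5*, another such proteoglycan of the nervous system, by 6.82 (FDR 2.0e-04), and the receptors *Rtn4rl1* and *Ptprs* by 4.72 (FDR 2.0e-04) and 2.26 (FDR 1.2e-04). Of 11 chain synthesis genes, 9 were higher and none lower, beside 34.6% and 36.6% of all genes. Among the 9 were *Xylt1* (5.81, FDR 7.4e-05) and *B3gat3* (1.74, FDR 1.9e-04), which start the chain and build its linker. Lower in NPCs were the epimerase *Dse* (-4.00, FDR 8.2e-05), the hyaluronan enzyme *Cemip2* (-1.59, FDR 1.2e-04), the hyaluronan receptor *Hmmr* (-1.49, FDR 0.00111), the proteases *Mmp2* (-5.30, FDR 0.00185) and *Mmp9* (-4.40, FDR 0.00410), and the small proteoglycan *Bgn* (-5.33, FDR 0.0180). *Mmp2* was at -4.02 and *Bgn* at -2.07 without WT ESC sample 2, the sample with 3586 CPM of fibroblast markers. *Bgn* did not pass then, nor when any NPC sample was left out, nor in the KO samples.

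The comparison of KO with WT PFC is the one the members were chosen on. *Matn2* was at 6.75, 6.25 and 7.06 RPKM in WT samples 1 to 3 and at 9.72, 9.96 and 9.31 RPKM in KO samples 1 to 3. All KO samples were above all WT samples, which 8.72% of all genes showed, with means of 9.66 ± 0.329 (SD, n = 3) and 6.69 ± 0.404 RPKM (SD, n = 3), a 1.44-fold difference and a log2 fold change of 0.53 (SE 0.08). It was the single member called of 8 tested, beside 0.638% of 15364 genes (0.163% higher in KO), and nothing is read from that count, since this difference chose the list. The call was not made without WT sample 2 or without any KO sample, with the log2 fold change between 0.48 and 0.57 throughout.

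**Figure D4:**
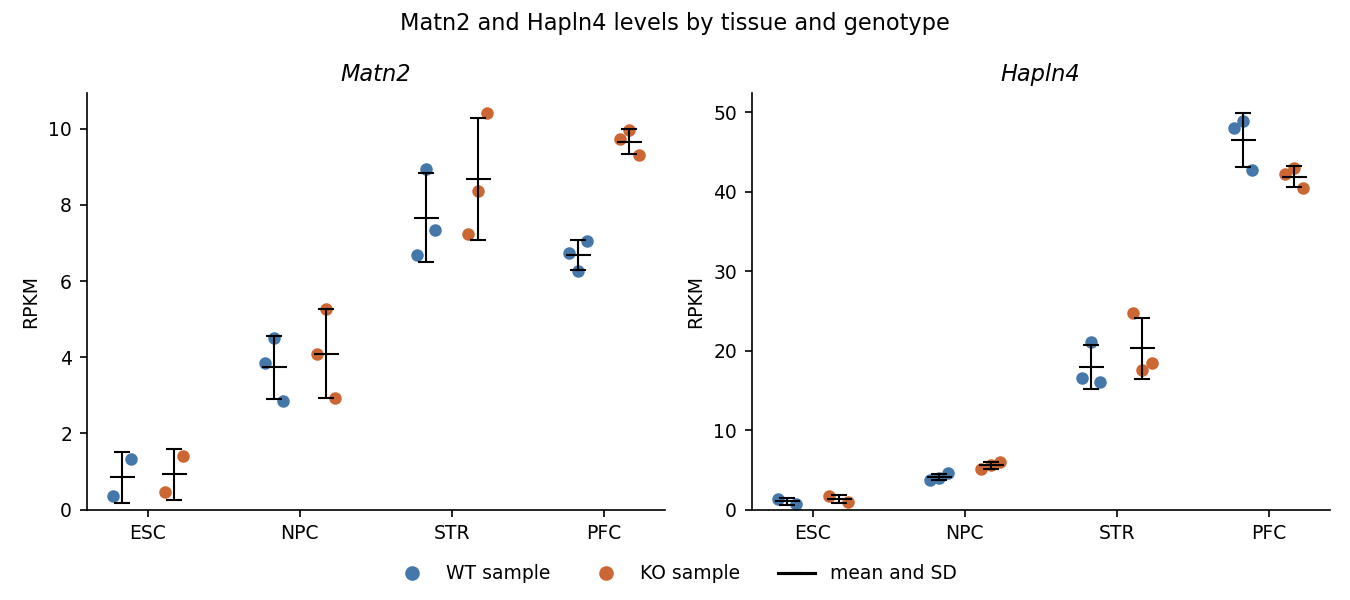
RPKM of *Matn2* (left) and *Hapln4* (right) in each sample by source and genotype, with the mean and SD of each group. *Matn2* is at 9.31 to 9.96 RPKM in KO and 6.25 to 7.06 RPKM in WT PFC and overlaps in the other sources, and *Hapln4* is highest in PFC in both genotypes.

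The other matrilins did not share the difference in PFC. *Matn4* was at 3.34, 4.49 and 2.75 RPKM in WT and 3.32, 3.25 and 2.77 RPKM in KO samples (-0.21, SE 0.17), overlapping, and at 0.02 without WT sample 2. *Matn3* had 2, 1 and 2 counts in WT and 3, 3 and 3 in KO samples and did not pass the filter. With *Matn2* higher, its share of the matrilin RPKM was 75.0% ± 1.20 (SD, n = 3) in KO and 65.2% ± 6.66 (SD, n = 3) in WT PFC.

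Lecticans and link proteins in PFC lay close to or below WT. *Hapln1* was at 7.27, 6.71 and 6.27 RPKM in WT and 6.24, 5.25 and 5.83 RPKM in KO samples (-0.24, SE 0.10). It was the single member with every KO sample below every WT sample, which 8.39% of all genes showed. The margin was small, 6.24 against 6.27 RPKM. *Hapln4* was at 48.0, 49.0 and 42.7 RPKM in WT and 42.3, 43.0 and 40.5 RPKM in KO samples (-0.16, SE 0.07), overlapping by a small margin. *Acan* was at 1.19, 1.40 and 0.648 RPKM in WT and 0.760, 0.764 and 0.902 RPKM in KO samples (-0.47, SE 0.24), where WT sample 3, of 31 counts, was lowest. The differences were -0.10 (SE 0.08) for *Bcan*, 0.07 (SE 0.08) for *Ncan* and -0.20 (SE 0.13) for *Vcan*, and the KO and WT ranges of each overlapped. The median over the 8 members was -0.18 and over all genes -0.02.

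Of the 58 other matrix genes, 2 of 52 tested passed in PFC, both lower in KO, beside 0.638% of all genes in either direction. *Hapln2*, the link protein gene beside *Bcan*, known from oligodendrocytes and the nodes of Ranvier, was at 11.9 ± 1.56 in KO and 23.0 ± 3.91 RPKM in WT samples (SD, n = 3 each; -0.97, SE 0.13, FDR 0.0102), and *Adamts4*, a protease that cleaves lecticans and is also made by oligodendrocytes, was at 5.67 ± 0.551 and 8.99 ± 1.79 RPKM (-0.69, SE 0.14, FDR 0.0484). *Hapln2* did not pass without KO sample 2 (-0.91) or KO sample 3 (-0.91), and *Adamts4* passed only with all samples or without WT sample 1. The 6 oligodendrocyte markers summed to 1389 to 1482 CPM in KO and 1699 to 2235 CPM in WT PFC, with 3 of the 6 lower and none higher at an FDR under 0.05. The sum of 2235 CPM was that of WT sample 3, and the other WT samples were at 1699 and 1749 CPM. The part of oligodendrocytes in the *Hapln2* and *Adamts4* values was not tested. Of the astrocyte markers 1 of 6 was lower, of the oligodendrocyte precursor markers 1 of 5, and none passed in the parvalbumin, microglial, endothelial or fibroblast lists.

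In STR, where the members were not chosen, none of 8 passed in edgeR's quasi-likelihood test, and none of all 15476 genes did. The targeted gene *Phf8* did not pass there either (log2 fold change -1.37, SE 0.15, FDR 0.0956). The lack of calls in STR therefore does not show that the members are unchanged. At an unadjusted p under 0.05 there was 1 member, beside 8.7% of all genes, and edgeR's exact test and DESeq2 also called 0 members. That member was *Hapln1*, at 5.93, 5.07 and 5.37 RPKM in WT and 3.74, 4.27 and 4.08 RPKM in KO samples. All KO samples were below all WT samples, which 6.69% of all genes showed, and the log2 fold change was -0.43 (SE 0.11, FDR 0.397, edgeR's quasi-likelihood test). Without KO sample 1, which held hypothalamic markers, it was -0.39, and over all samples left out in turn -0.49 to -0.37. In PFC, too, every KO sample of *Hapln1* was below every WT sample, as in 8.39% of all genes there, but by a small margin (6.24 against 6.27 RPKM). The PFC values are a description, since they were part of the choice of members.

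*Matn2* in STR was at 6.69, 8.95 and 7.34 RPKM in WT and 7.24, 8.36 and 10.4 RPKM in KO samples, overlapping (log2 fold change 0.19, SE 0.14, FDR 0.783), and the change was 0.29 without KO sample 1. Whether its KO difference is smaller in STR than in PFC was not tested. *Hapln4* was at 16.6, 21.1 and 16.1 RPKM in WT and 24.7, 17.6 and 18.5 RPKM in KO samples (0.19, SE 0.15, FDR 0.795), and without KO sample 1, the highest, the log2 fold change was 0.01. The other tested members were between -0.31 (*Acan*) and 0.18 (*Matn4*). *Bcan* was at 49.6 to 54.1 RPKM in WT and 52.4 to 55.4 RPKM in KO samples.

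In NPCs none of 7 members passed, beside 0.00697% of 14351 genes, and edgeR's exact test and DESeq2 also called 0. *Hapln4* was the single member at an unadjusted p under 0.05, beside 3.03% of all genes. It was at 3.76, 3.99 and 4.59 RPKM in WT and 5.11, 5.66 and 5.96 RPKM in KO samples, all KO above all WT samples, as in 3.57% of all genes, and the log2 fold change was 0.44 (SE 0.13, FDR 1.0, edgeR's quasi-likelihood test). Here same-numbered WT and KO samples deviated together (r = 0.569, 0.705 and 0.524), and within each number the KO sample held 1.36, 1.42 and 1.30 times the WT level. With the number as a block the FDR was 0.345. *Matn2* was at 3.86, 4.50 and 2.86 RPKM in WT and 4.09, 5.26 and 2.93 RPKM in KO samples (0.13, SE 0.26), or 1.06, 1.17 and 1.02 times WT within the numbers. *Bcan* (-0.02, SE 0.12) and *Ncan* (0.10, SE 0.30) overlapped, and *Vcan* was at 16.3, 29.9 and 17.8 RPKM in WT and 17.9, 17.9 and 16.2 RPKM in KO samples (-0.30, SE 0.24), where WT sample 2 stood alone and the log2 fold change was 0.01 without the samples numbered 2, a choice made after seeing the data.

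In ESCs none of 7 members passed, none had an unadjusted p under 0.05 (1.13% of all genes did), none of 15080 genes passed, and edgeR's exact test and DESeq2 called 0 members. The targeted gene *Phf8* did not pass in the quasi-likelihood test either (log2 fold change -1.79, SE 0.22), so the lack of calls does not show that the members are unchanged. Log2 fold changes of the members ran from 0.00 (*Vcan*, SE 0.76) to 0.47 (*Bcan*, SE 0.39), all with an FDR of 1.0. The SEs were widest for *Vcan* and *Matn2* (0.13, SE 0.92), the members that differed between the samples numbered 1 and 2. Within numbers 1 and 2, KO held 0.963 and 1.01 times the WT level of *Vcan*, 1.22 and 1.06 times that of *Matn2*, and 1.23 and 1.31 times that of *Hapln4*.

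**Figure D5:**
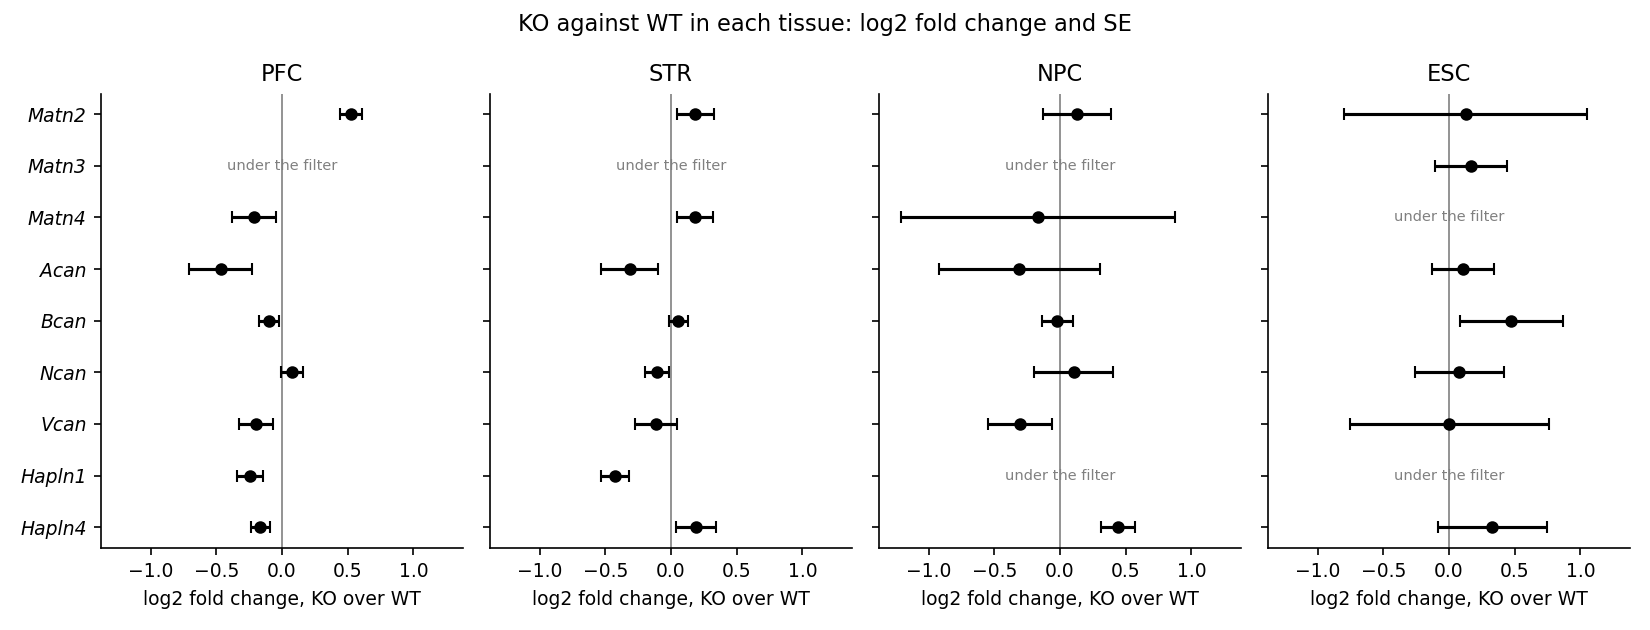
Log2 fold change of KO over WT with its SE for each member in PFC, STR, NPCs and ESCs. *Matn2* is at 0.53 in PFC, the contrast that chose the members, *Hapln1* is at -0.43 in STR, *Hapln4* at 0.44 in NPCs, and the bars are widest for *Matn2* and *Vcan* in ESCs and *Matn4* in NPCs.

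None of the 58 other matrix genes passed in STR (52 tested), NPCs (48) or ESCs (49) by edgeR's quasi-likelihood test. In that order, 4, 4 and 3 of them had an unadjusted p under 0.05, beside 8.7%, 3.03% and 1.13% of all genes. In STR edgeR's exact test called 1, *Ptprz1*. The smallest p-values in each direction there were those of *Ptprz1* (0.43, FDR 0.397) and *Cd44*, a hyaluronan receptor (0.66, FDR 0.452), on the higher side, and *Xylt2* (-0.19, FDR 0.634) and *Hapln2* (-0.38, FDR 0.688) on the lower. In NPCs they were *Timp2*, a protease inhibitor (0.69), *Rtn4rl1* (0.46), *Dsel* (-0.32) and *Xylt2* (-0.29), and in ESCs *Cemip2* (0.38), *Chst15* (0.89), *Adamts8* (-0.61) and *Hyal1*, a hyaluronidase (-0.33), each with an FDR of 1.0.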

How the data were processed

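The submitters' processing notes name CASAVA 1.7 and STAR for the 22 libraries, and the authors aligned reads to mm10 (GRCm38) and counted them per gene with HTSeq on Ensembl genes. The deposited values are raw counts, without normalization, and 20.2% to 53.1% of each table's reads stood in rows that name no gene (reads without a unique place outnumbered those outside genes in the cultures, and the reverse held in brain) and were left out. Groups and replicate numbers came from the labels. Positions and exon lengths came from GENCODE M21 (37693 of 39179 identifiers matched, 99.709% of counts).

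RPKM and CPM were computed here from counts with TMM scaling over all samples. Comparisons used edgeR 4.0.16 (R 4.3.3): quasi-likelihood test, robust, TMM and filterByExpr within each comparison, on all genes, with Benjamini-Hochberg FDR under 0.05, and were tested on simulated data. edgeR is the tool the study names, and its log2 fold change beyond 1 was an alternative. The others were RLE size factors, no filter, edgeR's exact test, DESeq2 1.42.0, the replicate number as a block, each sample left out, and KO in place of WT samples. The replicate numbers, shared in the labels, were taken to pair samples where there were 3 or more pairs and the deviations of all same-numbered samples correlated above 0.1, which held in NPCs (KO with WT) and for WT PFC with WT STR.

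The members, gene lists and alternatives were chosen with earlier results of these data known. The text names all members, and of 58 other matrix genes up to 6 per direction with the smallest FDR, or 2 where none passed. Of the 3 genes whose profile over the group means was most like that of *Matn2*, 1 is not reported here. p-values measure only the spread between these samples. Intervals from counts cover counting error only.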

Additional observations from a re-analysis of the deposited data

How the results depend on the processing

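Of the member and gene values under the alternatives other than leaving out a single sample, 466 counted as unchanged, 10 passed where they had not, 6 no longer passed and 8 changed sign. Unchanged meant the same direction and side of the threshold. For members in KO against WT PFC it meant a log2 fold change moved by less than the SD between samples, whatever the threshold. A sign change was counted there only for a called member. Counts of calls moved in most comparisons. With a log2 fold change beyond 1 required, 0 members, 0 other matrix genes and 18 genes passed in KO against WT PFC (1, 2 and 98 without it), other matrix genes were 5 without the filter and 5 by edgeR's exact test, and all genes were 379 without the filter, 375 by the exact test and 182 by DESeq2. In STR the exact test called 1 other matrix gene and 104 genes, no filter 27, DESeq2 53 and the replicate block 8, against 0. In NPCs, against 1, all genes called were 2 without the filter, 5 by DESeq2, 2 by the exact test, 3 with the replicate block and 0 without the samples numbered 2, an alternative chosen after seeing the data. In ESCs, against 0, DESeq2 called 3 genes and the exact test 2, and the replicate block called 513 genes and 8 other matrix genes, among them *Cemip2* (0.38, FDR 2.7e-05 in edgeR with the block) and *Chst15* (0.88, FDR 0.00886). The ESC pairs correlated at 0.876, but 2 pairs do not settle a pairing. For WT PFC against STR, members called were 2 without the filter (*Vcan* added), 3 with the replicate block and 5 in KO samples, against 1, and a log2 fold change beyond 1 left 7 of 17 other matrix genes and 1292 of 3791 genes. The block changed no other member's call, except that *Matn4* was under the filter with it in NPCs against ESCs.

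The signs counted as changed in KO against WT were those of *Matn4* in NPCs (0.11 with the block) and *Vcan* in NPCs (0.0095 without the samples numbered 2) and ESCs (-0.0061 without the filter, -0.0058 with the block). For PFC over STR they were those of *Matn2* (0.13 in KO samples), *Matn4* (0.0030 without the filter) and *Acan* (0.0021 with RLE, 0.0088 without the filter). The causes were not tested.

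With each sample left out, PFC gave 0 to 1 members, 0 to 3 other matrix genes and 2 to 154 genes, STR 0 to 2 genes, NPCs 0 to 0 genes, PFC against STR 1 to 2 members and 11 to 15 other matrix genes, and NPCs against ESCs 6 to 7 members and 28 to 41 other matrix genes. Ranges of log2 fold changes that crossed 0 were, in ESCs, *Acan* -0.15 to 0.32, *Hapln4* -0.030 to 0.76, *Matn2* -0.97 to 1.36, *Matn3* -0.080 to 0.45, *Ncan* -0.34 to 0.40 and *Vcan* -0.90 to 0.82. In NPCs they were *Acan* -0.91 to 0.26, *Bcan* -0.094 to 0.10, *Matn2* -0.094 to 0.32, *Matn4* -0.73 to 0.27, *Ncan* -0.12 to 0.32 and *Vcan* -0.47 to 0.033. In PFC *Matn4* ran from -0.34 to 0.017. In STR *Vcan* ran from -0.22 to 0.10, and for PFC over STR *Acan* from -0.24 to 0.22 and *Matn4* from -0.23 to 0.13. Depth limits *Matn3* outside ESCs and *Hapln1* in the cultures, at 9 counts or fewer per sample.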
